A study of Drosophila melanogaster with 10 samples.

Results

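The 26S proteasome was followed through its subunit mRNAs in the larval notum, which holds muscle precursors among other disc cells, and in flight muscle of Drosophila melanogaster, with and without a hairpin against Rbf. Genes whose symbol begins with Rpn, Rpt, Prosalpha or Prosbeta followed by a number, and whose counts summed to at least 10 over the 10 libraries, numbered 48 of 15259 genes in the table (14645 genes passed the same minimum). Core subunits of the particle made up 32 of them: 7 alpha-ring genes, 7 beta-ring genes, 6 Rpt ATPases, 4 other base subunits (Rpn1, Rpn2, Rpn10 and Rpn13) and 8 lid subunits (Rpn3, Rpn5, Rpn6, Rpn7, Rpn8, Rpn9, Rpn11 and Rpn12). The other 16 are duplicate copies, whose symbols end in R or T and a digit where there are several. No measured difference was used to choose a member.

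The proteasome degrades proteins that carry ubiquitin chains. Its barrel, the 20S particle, is a stack of alpha and beta rings: the alpha rings form the gate, and 3 of the beta subunits, Prosbeta1, Prosbeta2 and Prosbeta5, cut the protein chain. The 19S cap has a base, in which the Rpt ATPases unfold the substrate and Rpn10 and Rpn13 bind ubiquitin, and a lid, in which Rpn11 removes the ubiquitin chain. All subunits are needed in fixed proportion in the particle, and muscle relies on it for the turnover of sarcomere proteins. In flies the duplicate copies are known mostly from the male germline, where several replace a core subunit.

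All animals were kept at 25 °C and carried P{UAS-Dicer2.D}1, which strengthens RNA interference, and a Mef2 GAL4 driver inserted on chromosome 3, which turns transgenes on in the muscle lineage. The control labelled WT had P{UAS-mCherry-RNAi}attP2 and the genotype labelled Rbf-KD had P{UAS-Rbf-RNAi[GD:10696]}, so the inserted transgene itself cannot be told apart from an effect of the Rbf hairpin. Notum was cut from wing discs of wandering larvae (3 libraries per genotype). Flight muscle was dissected from pharate flies, at about 96 h of pupal development (2 libraries per genotype). Nothing in the labels says whether the replicates are separate animals or cultures, so p-values measure the spread between these samples, which may be technical. Age and tissue change together between the 2 sources. Rbf encodes the fly retinoblastoma-family repressor of E2F target genes, and the hairpin acts only where the driver does.

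Gene counts summed to 42097050 to 55401980 per notum library and 53864590 to 73408335 per flight muscle library. Notum libraries held summed counts of 24196 to 34152 for 8 muscle precursor markers and 115202 to 140749 for 12 disc epithelium markers, so the precursors the label names were a part of the tissue. The flight muscle marker Act88F, the flight muscle actin, had 256 to 372 counts in notum and 1691415 to 2361466 in flight muscle, as the labels say. Rbf, the targeted gene, had 4346, 5179 and 4643 counts in WT notum, 4025, 4081 and 4336 in Rbf-KD notum, 187 and 203 in WT flight muscle and 1210 and 1454 in Rbf-KD flight muscle. In notum the Rbf-KD counts were below the WT counts, but the fold change was not called (log2 -0.25, SE 0.18, edgeR adjusted p = 1.00). In flight muscle Rbf went against its label, higher in Rbf-KD (log2 1.48, SE 0.17, edgeR adjusted p = 0.00229), so the groups are named by their labels only. Between tissues it was log2 -2.12, SE 0.22, edgeR adjusted p = 2.28e-05 in WT and log2 -0.36, SE 0.20, edgeR adjusted p = 0.130 in Rbf-KD, and the difference of genotype effects was log2 1.76, SE 0.29, edgeR adjusted p = 0.00188.

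The 32 core subunits together took a far smaller share of flight muscle libraries than of notum libraries. They held 0.665%, 0.560% and 0.584% of the gene counts in WT notum and 0.643%, 0.610% and 0.584% in Rbf-KD notum. In flight muscle they held 0.0685% and 0.0750% in WT and 0.139% and 0.132% in Rbf-KD. Both muscle genotypes lay below every notum library, and the Rbf-KD muscle libraries above the WT muscle libraries. Much of that gap went with the scaling between libraries. TMM, which sets libraries to a common level over most genes, gave factors of 1.76 to 1.95 in notum, 0.277 in both WT muscle libraries and 0.595 and 0.551 in Rbf-KD muscle. On the TMM scale the core subunits summed to 3106 to 3460 CPM (counts per 1000000 counts) in notum, 2474 and 2713 CPM in WT muscle and 2330 and 2394 CPM in Rbf-KD muscle. The order of the muscle genotypes was then the opposite. Fewer cells of a type and less RNA per cell cannot be told apart in such bulk samples.

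**Figure D1:**
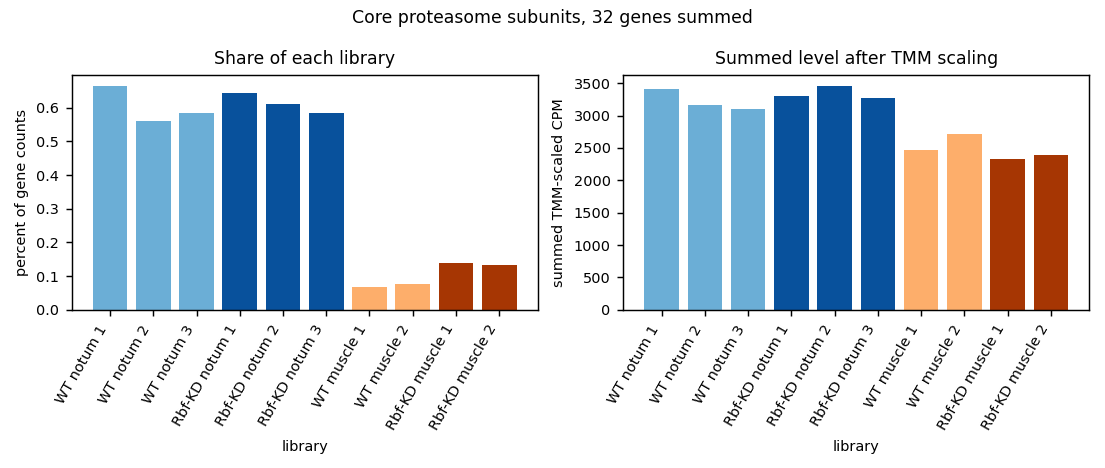
Summed counts of the 32 core proteasome subunits in each of the 10 libraries, as a percent of gene counts (left) and as TMM-scaled CPM (right). On the left WT muscle (0.0685% and 0.0750%) lies below Rbf-KD muscle (0.139% and 0.132%); on the right this order turns (2474 and 2713 against 2330 and 2394 CPM).

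For this reason each difference below is given on the TMM scale, with the value under library totals wherever it turns the direction. From TMM to library totals the median log2 fold change of all genes moved from 0.10 to 1.20 for Rbf-KD against WT in flight muscle. For flight muscle against notum it moved from -0.49 to -3.24 in WT and from -0.23 to -1.90 in Rbf-KD. The position of a subunit within the complex was taken as its change after scaling every library to the summed counts of the core subunits, which does not depend on the choice between the other two scalings. This scale was added after the data had been seen, and on it a rise of some subunits must be balanced by a fall of others. Levels are in CPM of the fit of all 10 libraries. A call is an edgeR adjusted p under 0.05 over all genes of a fit.

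Within a library the core subunits lay close together per kilobase of transcript. The highest of the 32 was 2.47 to 3.05 times the lowest in the 6 notum libraries, 4.0 and 4.13 times in WT muscle and 2.53 and 2.70 times in Rbf-KD muscle. The SD of log2 CPM per kilobase over the subunits was 0.339 to 0.411 in notum, 0.531 and 0.539 in WT muscle and 0.398 and 0.434 in Rbf-KD muscle. Subunit levels were thus more unequal in both WT muscle libraries than in any other library. Prosalpha2 was the highest per kilobase in every notum library, with 125 ± 9.46 CPM per kilobase in WT notum (mean ± SD, n = 3) and 130.4 ± 5.80 in Rbf-KD notum (n = 3). Prosbeta5, the chymotrypsin-like active site, was the highest in WT muscle (116 ± 8.02 CPM per kilobase, n = 2), and Rpn10 in Rbf-KD muscle (89.8 ± 5.38 CPM per kilobase, n = 2). At the low end stood Rpn1, Rpn8 or Rpn13 in notum, Rpn11 or Rpn5 in WT muscle and Prosalpha4 in Rbf-KD muscle.

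**Figure D2:**
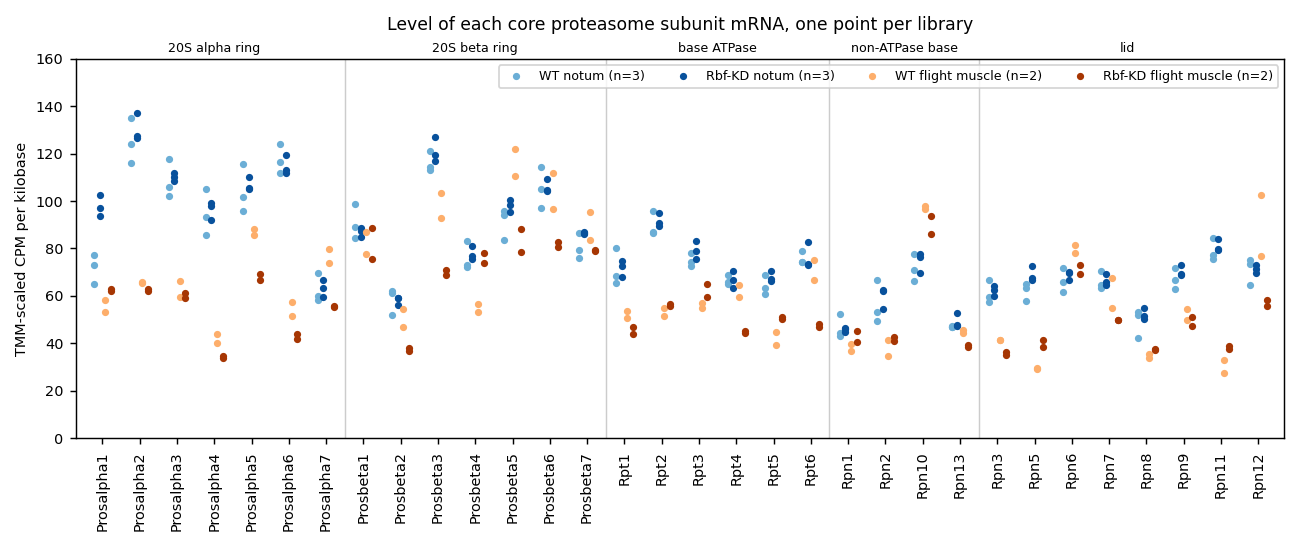
TMM-scaled CPM per kilobase of transcript for the 32 core subunits, one point per library, grouped by place in the particle. Prosalpha2, Prosalpha3, Prosalpha4 and Prosalpha6 fall apart by tissue, while Prosbeta5 and Rpn10 lie above their notum levels in WT muscle; under library totals every subunit is lower in muscle.

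Flight muscle was first compared with notum in WT animals, so mixed disc tissue that holds muscle precursors was set against muscle. Of 12 disc epithelium markers 11 were lower in WT flight muscle. Of 10 hemocyte markers 8 were higher in flight muscle in each genotype on the TMM scale (4 higher and 2 lower in WT under library totals), and of 5 neuron markers 4 (0 higher and 2 lower in WT, 3 and 2 in Rbf-KD, under library totals). Of 8 fat body markers 1 was higher in WT muscle on the TMM scale (0 higher and 5 lower under library totals), and 7 were higher and 1 lower in Rbf-KD under both scalings. The part of these cell types in the differences was not tested. Of the 32 core subunits 19 were lower and 5 higher in WT flight muscle, against 43.4% of all 13407 genes tested lower and 33.3% higher. The median log2 fold change of the core subunits was -0.33, and that of all genes -0.49. In Rbf-KD animals 24 were lower and 1 was higher, against 39.2% and 34.9% of all genes, with a median of -0.52 beside -0.23 over all genes. Under library totals all 32 were lower in both genotypes, with medians of -3.08 and -2.20, as were 76.3% of all genes in WT and 68.5% in Rbf-KD (10.9% and 16.1% were higher). Library totals moved all core subunits down by a similar amount, so the lower calls had to keep their direction. The 5 higher calls in WT turned through the same shift. Neither outcome is a test of the calls. Of the 19 lower calls in WT 15 were kept in every fit with 1 library left out (not Prosalpha1, Prosalpha5, Prosbeta3 and Rpn1), and of the 24 in Rbf-KD 22 (not Rpn2 and Rpn12). DESeq2 called 14 of the 19, without Prosalpha1, Prosalpha5, Prosbeta3, Rpn1 and Rpn9, and the replicate block left 17, without Prosalpha5 (edgeR adjusted p = 0.0642) and Prosbeta3 (0.0596). In Rbf-KD the block ended the call of Rpn12 (edgeR adjusted p = 0.0876). Of the 5 higher calls Rpn10 alone was kept each time. With the replicate number as a block Prosbeta5 and Rpn10 were still called higher. In the fit of all 10 libraries that block joins notum and muscle libraries of the same number, which no label pairs. Without WT muscle replicate 2 the log2 fold change of Rpn12 was 0.09 and not called.

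The alpha ring held the largest decreases of the barrel: 6 of its 7 genes were lower in flight muscle in each genotype. Prosalpha4 (X) had 124, 101 and 109.9 CPM in WT notum, 115, 116 and 108 CPM in Rbf-KD notum, 47.2 and 51.7 CPM in WT flight muscle and 39.95 and 40.7 CPM in Rbf-KD flight muscle. No flight muscle library came near a notum library, and the decrease was log2 -1.17, SE 0.11, edgeR adjusted p = 9.28e-06 in WT and log2 -1.49, SE 0.11, edgeR adjusted p = 2.57e-06 in Rbf-KD. Prosalpha6 (2L) had 128, 115 and 119.5 CPM in WT notum, 116, 123 and 115 CPM in Rbf-KD notum, 52.7 and 58.8 CPM in WT flight muscle and 45.2 and 43.1 CPM in Rbf-KD flight muscle. It too was separate between tissues, with a decrease of log2 -1.11, SE 0.09, edgeR adjusted p = 4.98e-06 in WT and log2 -1.42, SE 0.10, edgeR adjusted p = 1.41e-06 in Rbf-KD. Prosalpha2 (3R) and Prosalpha3 (2R) fell as well, by 0.93 and 0.79 on the log2 scale in WT and by 1.06 and 0.88 in Rbf-KD. Prosalpha3 had 115, 99.4 and 103 CPM in WT notum, 107, 109 and 106 CPM in Rbf-KD notum, 57.9 and 64.7 CPM in WT flight muscle and 59.4 and 57.5 CPM in Rbf-KD flight muscle. The flight muscle libraries of both genotypes lay in 1 range, well below notum.

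Prosalpha7 (2R) was the exception of the ring. It had 67.9, 58.5 and 56.8 CPM in WT notum, 64.96, 61.8 and 58.2 CPM in Rbf-KD notum, 72.1 and 77.8 CPM in WT flight muscle and 54.01 and 54.4 CPM in Rbf-KD flight muscle. The WT muscle libraries lay above all WT notum libraries and the Rbf-KD muscle libraries below all Rbf-KD notum libraries. Its change was an increase in WT (log2 0.30, SE 0.10, edgeR adjusted p = 0.0239), which became -2.46 under library totals, and was not called in Rbf-KD (log2 -0.18, SE 0.10, edgeR adjusted p = 0.127). Prosalpha5 (2R) had 102, 84.8 and 89.96 CPM in WT notum, 93.01, 97.4 and 93.2 CPM in Rbf-KD notum, 78.1 and 75.8 CPM in WT flight muscle and 59 and 61.02 CPM in Rbf-KD flight muscle. It was lower in flight muscle of both genotypes (log2 -0.26, SE 0.10, edgeR adjusted p = 0.0337 in WT and log2 -0.66, SE 0.10, edgeR adjusted p = 0.000270 in Rbf-KD).

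In the beta ring the active sites went different ways on the TMM scale: Prosbeta1 was called in neither genotype, Prosbeta2 was lower in Rbf-KD and Prosbeta5 higher in WT. Prosbeta1 (FBgn0010590, 2R), the caspase-like site, had 84.02, 71.8 and 75.9 CPM in WT notum, 72.1, 75.4 and 74.4 CPM in Rbf-KD notum, 66.2 and 73.9 CPM in WT flight muscle and 64.5 and 75.4 CPM in Rbf-KD flight muscle. The tissues overlapped, and the change was not called in either genotype (log2 -0.14, SE 0.11, edgeR adjusted p = 0.252 in WT and log2 -0.08, SE 0.11, edgeR adjusted p = 0.504 in Rbf-KD). Prosbeta2 (FBgn0023174, 3L), the trypsin-like site, had 64.04, 63.5 and 53.6 CPM in WT notum, 60.9, 60.9 and 58.1 CPM in Rbf-KD notum, 48.4 and 56.5 CPM in WT flight muscle and 39.1 and 38.2 CPM in Rbf-KD flight muscle. Its change was not called in WT (log2 -0.20, SE 0.11, edgeR adjusted p = 0.110), where the tissues overlapped, and was a decrease in Rbf-KD (log2 -0.63, SE 0.11, edgeR adjusted p = 0.000607), where they did not. Prosbeta5 (FBgn0029134, 2R), the chymotrypsin-like site, had 109, 107 and 95.4 CPM in WT notum, 108, 114 and 112 CPM in Rbf-KD notum, 126 and 139 CPM in WT flight muscle and 89.6 and 100.4 CPM in Rbf-KD flight muscle. The WT muscle libraries were above all others, an increase of log2 0.35, SE 0.10, edgeR adjusted p = 0.0101 that became -2.40 under library totals, while Rbf-KD muscle was below Rbf-KD notum without a call (log2 -0.23, SE 0.10, edgeR adjusted p = 0.0636). Under library totals all 3 active sites were lower in flight muscle. Short stretches of Prosbeta2 and Prosbeta5 transcripts (7.9% and 7.1% of their length) lie opposite Reck and Lsm10, and reads there are uncertain, since the sources used here do not say whether counting used strand.

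Of the other beta subunits, which build the ring without cutting, Prosbeta3 and Prosbeta4 were called in WT and Prosbeta3 and Prosbeta6 in Rbf-KD. Prosbeta3 (3R) had 111, 103 and 104 CPM in WT notum, 109, 116 and 107 CPM in Rbf-KD notum, 84.8 and 94.4 CPM in WT flight muscle and 64.7 and 62.7 CPM in Rbf-KD flight muscle. It was lower in flight muscle in both genotypes, with the larger difference in Rbf-KD (log2 -0.24, SE 0.09, edgeR adjusted p = 0.0321 in WT and log2 -0.80, SE 0.09, edgeR adjusted p = 4.49e-05 in Rbf-KD). Prosbeta4 (2L) had 64.5, 55.8 and 56.5 CPM in WT notum, 59.3, 62.8 and 58.5 CPM in Rbf-KD notum, 41.1 and 43.9 CPM in WT flight muscle and 57.1 and 60.5 CPM in Rbf-KD flight muscle. The WT muscle libraries were the 2 lowest of the 10, and the Rbf-KD muscle libraries lay among the notum values; the change was log2 -0.47, SE 0.09, edgeR adjusted p = 0.00148 in WT and log2 -0.04, SE 0.09, edgeR adjusted p = 0.739 in Rbf-KD. Prosbeta6 (3L) and Prosbeta7 (3R) were not called in WT (log2 -0.02 and 0.15); in Rbf-KD Prosbeta6 was lower (log2 -0.38, edgeR adjusted p = 0.00927) and Prosbeta7 was not called (-0.13).

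The 6 Rpt ATPases, the unfolding motor, were all below their notum levels on the TMM scale. The test called 4 of them in WT (Rpt1, Rpt2, Rpt3 and Rpt5) and 6 in Rbf-KD. Rpt2 (3R) had 144, 129.6 and 130.4 CPM in WT notum, 134, 143 and 136 CPM in Rbf-KD notum, 77.3 and 82.1 CPM in WT flight muscle and 83.95 and 84.6 CPM in Rbf-KD flight muscle. It had the largest decrease of the motor in both genotypes (log2 -0.76, SE 0.09, edgeR adjusted p = 5.16e-05 in WT and log2 -0.71, SE 0.09, edgeR adjusted p = 8.96e-05 in Rbf-KD). Rpt6 (X) had 111, 104 and 104 CPM in WT notum, 103, 116 and 102 CPM in Rbf-KD notum, 93.5 and 106 CPM in WT flight muscle and 66.1 and 67.7 CPM in Rbf-KD flight muscle. WT muscle overlapped WT notum and was not called (log2 -0.09, SE 0.10, edgeR adjusted p = 0.388), while Rbf-KD muscle was well below (log2 -0.68, SE 0.10, edgeR adjusted p = 0.000213). Rpt5 (3R) had 112, 103 and 99.04 CPM in WT notum, 109, 115 and 108 CPM in Rbf-KD notum, 63.8 and 72.6 CPM in WT flight muscle and 82.9 and 81.6 CPM in Rbf-KD flight muscle. Rpt3 (X) had 106, 111 and 103 CPM in WT notum, 108, 118 and 113 CPM in Rbf-KD notum, 78.2 and 81.2 CPM in WT flight muscle and 84.6 and 92.4 CPM in Rbf-KD flight muscle. Both were lower in flight muscle in both genotypes, Rpt3 with the smallest decrease of the motor in Rbf-KD (log2 -0.35, SE 0.09, edgeR adjusted p = 0.00609). Rpt4 (X) had 101, 96.5 and 95.1 CPM in WT notum, 97.8, 103 and 92.96 CPM in Rbf-KD notum, 87.2 and 94.9 CPM in WT flight muscle and 66.05 and 64.8 CPM in Rbf-KD flight muscle, and Rpt1 (2R) had 122, 99.2 and 103 CPM in WT notum, 113, 109.8 and 103 CPM in Rbf-KD notum, 76.5 and 81.1 CPM in WT flight muscle and 70.9 and 66.4 CPM in Rbf-KD flight muscle. Rpt1 was called lower in both genotypes and Rpt4 in Rbf-KD only (log2 -0.58, SE 0.09, edgeR adjusted p = 0.000270; -0.10 in WT). Stretches of the Rpt2, Rpt4 and Rpt6 transcripts lie opposite other genes (7.7%, 6.3% and 13.0% of their length), with the same doubt about reads there.

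Among the other base subunits Rpn10 (3L), a ubiquitin receptor, went against the rest. It had 111, 94.4 and 101 CPM in WT notum, 109, 111 and 98.9 CPM in Rbf-KD notum, 137 and 139 CPM in WT flight muscle and 122 and 133 CPM in Rbf-KD flight muscle. Both muscle groups were above the matching notum libraries, an increase on the TMM scale of log2 0.44, SE 0.10, edgeR adjusted p = 0.00342 in WT and log2 0.27, SE 0.10, edgeR adjusted p = 0.0374 in Rbf-KD, and -2.32 and -1.41 under library totals. Leaving out 1 library ended the Rbf-KD call in 9 of 10 cases and the WT call in 0, and the replicate block ended the Rbf-KD call too (edgeR adjusted p = 0.104). Rpn2 (3R), the scaffold that carries the receptor Rpn13, had 176, 222 and 164 CPM in WT notum, 182, 206 and 208 CPM in Rbf-KD notum, 115 and 137 CPM in WT flight muscle and 137 and 141 CPM in Rbf-KD flight muscle. It was lower in flight muscle (log2 -0.57, SE 0.15, edgeR adjusted p = 0.00700 in WT and log2 -0.51, SE 0.15, edgeR adjusted p = 0.0126 in Rbf-KD). Rpn1 (3L), the scaffold that also binds ubiquitin-like shuttle factors, had 135, 159.7 and 131 CPM in WT notum, 136, 139.8 and 142 CPM in Rbf-KD notum, 112 and 121 CPM in WT flight muscle and 124 and 138 CPM in Rbf-KD flight muscle, and Rpn13 (2R), the other receptor, had 69.99, 70.3 and 70.6 CPM in WT notum, 70.8, 78.9 and 71.4 CPM in Rbf-KD notum, 66.2 and 68.4 CPM in WT flight muscle and 59.03 and 57.5 CPM in Rbf-KD flight muscle. Rpn1 was called lower in WT only (log2 -0.29, SE 0.11, edgeR adjusted p = 0.0424; -0.09 in Rbf-KD) and Rpn13 in Rbf-KD only (log2 -0.34, SE 0.08, edgeR adjusted p = 0.00432; -0.06 in WT).

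The lid held the lowest fold change of WT animals, that of Rpn11, and 2 of the 5 subunits called higher there, Rpn6 and Rpn12. Rpn11 (2L), the deubiquitinase, had 102, 93.5 and 91.3 CPM in WT notum, 95.95, 101 and 96.1 CPM in Rbf-KD notum, 33.4 and 39.7 CPM in WT flight muscle and 47 and 45.5 CPM in Rbf-KD flight muscle. It had the largest decrease of any core subunit in WT (log2 -1.39, SE 0.10, edgeR adjusted p = 1.98e-06), and its decrease in Rbf-KD was log2 -1.08, SE 0.10, edgeR adjusted p = 1.24e-05. Rpn5 (3R), a scaffold subunit of the lid, had 124, 120.3 and 109 CPM in WT notum, 128, 138 and 126 CPM in Rbf-KD notum, 55.1 and 56.05 CPM in WT flight muscle and 78.7 and 73.3 CPM in Rbf-KD flight muscle. It fell as well (log2 -1.08, SE 0.10, edgeR adjusted p = 6.70e-06 in WT and log2 -0.78, SE 0.09, edgeR adjusted p = 6.62e-05 in Rbf-KD), and for both genes WT muscle held the lowest values. Rpn12 (3L), which in yeast joins the lid last, had 74.9, 64.4 and 72.95 CPM in WT notum, 72.8, 71.1 and 69.2 CPM in Rbf-KD notum, 76.6 and 102 CPM in WT flight muscle and 55.5 and 57.8 CPM in Rbf-KD flight muscle. WT muscle was above every other library, with the 2 replicates far apart, and Rbf-KD muscle below; the change was log2 0.34, SE 0.13, edgeR adjusted p = 0.0355 in WT, -2.42 under library totals, and log2 -0.33, SE 0.13, edgeR adjusted p = 0.0430 in Rbf-KD. Rpn6 (2R), which in yeast ties the lid to the barrel, had 131, 113 and 121 CPM in WT notum, 127, 128 and 122 CPM in Rbf-KD notum, 143 and 149 CPM in WT flight muscle and 126 and 134 CPM in Rbf-KD flight muscle. It was higher in WT muscle (log2 0.27, SE 0.09, edgeR adjusted p = 0.0266; -2.49 under library totals) and not called in Rbf-KD (log2 0.05, SE 0.09, edgeR adjusted p = 0.647). Rpn3 (2L), Rpn8 (2R) and Rpn9 (3R) were lower in both genotypes, by log2 values of -0.57, -0.50 and -0.37 in WT and -0.80, -0.48 and -0.52 in Rbf-KD. Rpn7 (3R) was lower in Rbf-KD (log2 -0.41; -0.11 in WT). Rpn7 had 98.3, 90.2 and 88.2 CPM in WT notum, 91.5, 96.4 and 89.8 CPM in Rbf-KD notum, 76.7 and 93.9 CPM in WT flight muscle and 69.7 and 69.5 CPM in Rbf-KD flight muscle. Parts of the Rpn7 and Rpn9 transcripts lie opposite CG34376 and CG10365, and their counts are uncertain.

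**Figure D3:**
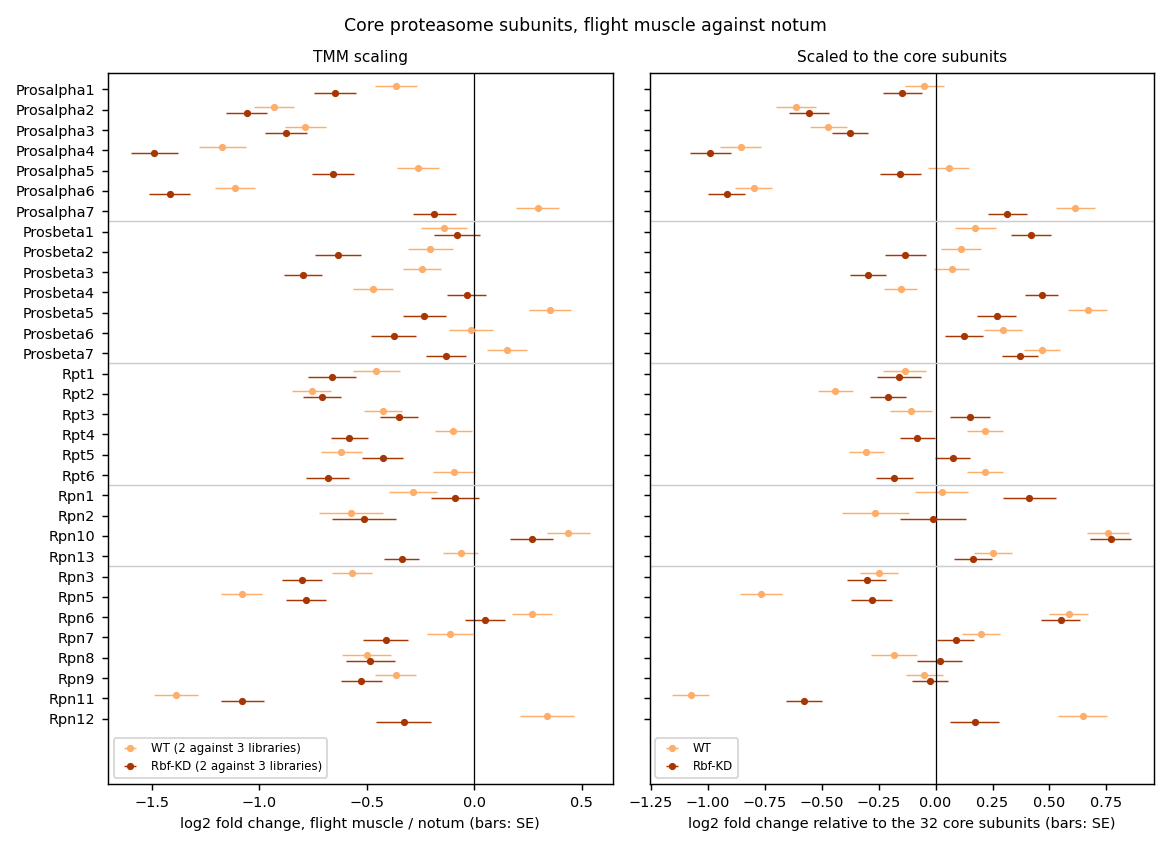
Log2 fold change of the 32 core subunits between flight muscle and notum, in WT and Rbf-KD animals, on the TMM scale (left) and relative to the summed core subunits (right); bars are SE. Prosalpha4, Prosalpha6 and Rpn11 lie lowest and Rpn10 highest in both panels; positive values on the left become negative under library totals.

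Relative to the complex, some subunits stood above and others below in WT flight muscle, which scaling to their own sum forces. The test placed 10 of the 32 above the complex and 9 below it, against 36.8% of all genes higher and 37.3% lower on that scale. Scaling to their own sum takes out any shift the subunits share. Their share of calls beside that of all genes is therefore not a result about the subunits. Above it were Rpn10 (log2 0.76, SE 0.09, edgeR adjusted p = 6.79e-05), Prosbeta5 (log2 0.67, SE 0.09, edgeR adjusted p = 0.000104), Rpn12 (log2 0.65), Prosalpha7 (0.61), Rpn6 (0.59), Prosbeta7 (0.47), Prosbeta6 (0.30), Rpn13 (0.25), Rpt6 (0.22) and Rpt4 (0.22). Below it were Rpn11 (log2 -1.07, SE 0.08, edgeR adjusted p = 2.75e-06), Prosalpha4 (log2 -0.86, SE 0.09, edgeR adjusted p = 2.51e-05), Prosalpha6 (log2 -0.80), Rpn5 (-0.77), Prosalpha2 (-0.61), Prosalpha3 (-0.47), Rpt2 (-0.44), Rpt5 (-0.30) and Rpn3 (-0.25). With each library left out in turn, 6 of the 10 and 8 of the 9 were called every time. Those not called every time were Prosbeta6, Rpn13, Rpt4, Rpt6 and Rpn3. The replicate block ended the calls of Rpn13 (edgeR adjusted p = 0.0563), Rpn3 (0.0610), Rpt4 (0.0907) and Rpt6 (0.0858).

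In Rbf-KD animals 8 subunits stood above the complex in flight muscle and 9 below, against 43.5% and 29.2% of all genes. Above were Rpn10 (log2 0.77, SE 0.09, edgeR adjusted p = 7.06e-05), Rpn6 (log2 0.55), Prosbeta4 (0.47), Prosbeta1 (0.42), Rpn1 (0.41), Prosbeta7 (0.37), Prosalpha7 (0.32) and Prosbeta5 (0.27). Below were Prosalpha4 (log2 -0.99, SE 0.09, edgeR adjusted p = 1.17e-05), Prosalpha6 (log2 -0.92), Rpn11 (-0.58), Prosalpha2 (-0.56), Prosalpha3 (-0.37), Rpn3 (-0.30), Prosbeta3 (-0.30), Rpn5 (-0.28) and Rpt2 (-0.21). Prosbeta5, Rpn1, Rpn3, Prosbeta3, Rpn5 and Rpt2 lost the call when at least 1 library was left out, and the replicate block ended those of Prosbeta5 (edgeR adjusted p = 0.0610) and Rpt2 (0.103). The 2 genotypes have no library in common, so their values stand side by side.

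The genotypes were compared next, within each tissue, where the question was whether the hairpin against Rbf went with a change of the proteasome mRNAs. In notum no difference passed the test. Of the 40 members tested 0 were called by edgeR or limma-voom, and DESeq2 called 2, Prosalpha1 and Prosalpha1R, which were also the 2 with an unadjusted edgeR p under 0.05. Over all 12203 genes edgeR called 0.0738% higher and 0.0819% lower. Leaving out Prosalpha1, the core subunits had log2 fold changes between -0.10 (Prosbeta1) and 0.12 (Rpn5), and the median of all 32 was -0.002 beside -0.013 for all genes. Within each class the ends were Prosbeta5 (0.07) and Prosbeta1 (-0.10), Rpt3 (0.04) and Rpt1 (-0.03), Rpn2 (0.05) and Rpn1 (-0.06), and Rpn5 (0.12) and Rpn7 (-0.03). None of these ends was past the threshold.

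On the scale of the notum fit, Prosalpha1 (2R) was the one core subunit whose libraries did not overlap by genotype. It had 144, 116 and 130.2 CPM in WT and 176, 179.5 and 164 CPM in Rbf-KD. In raw counts this was 8074, 4688 and 5895 against 8246, 9061 and 7665. The counts overlapped, but in CPM every Rbf-KD library was above every WT library, which 2.93% of all genes showed in this direction and 5.36% in the other. The fold change did not pass the main test (log2 0.41, SE 0.10, edgeR adjusted p = 0.451). Over all alternatives the adjusted p ran from 0.00121 (DESeq2) to 1.00 (edgeR without WT replicate 3), and with the replicate number as a block in edgeR it was 0.127. Its copy Prosalpha1R held 0.979 to 1.065 times its counts in every library, and reads of this pair cannot be told apart. In flight muscle Prosalpha1 had 20.6 and 23.3 CPM in WT and 23.98 and 23.2 CPM in Rbf-KD on the scale of the muscle fit and was not called (log2 0.10, SE 0.13, edgeR adjusted p = 0.552). Relative to the complex Prosalpha1 was at log2 0.396 in notum and 0.3 in flight muscle, called in neither (edgeR adjusted p = 0.318 and 0.0786). It was lower in flight muscle than in notum in both genotypes (log2 -0.37, SE 0.10, edgeR adjusted p = 0.00809 in WT and log2 -0.65, SE 0.10, edgeR adjusted p = 0.000312 in Rbf-KD).

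In flight muscle the direction of the genotype difference rested on the scaling. On the TMM scale edgeR called 8 of 32 core subunits lower in Rbf-KD and 0 higher (2 higher at an unadjusted p under 0.05, and 0 called higher by DESeq2 or limma-voom). Over all 10930 genes 20.3% were lower and 19.4% higher. The core median was -0.24 and that of all genes 0.10. Under library totals 31 of 32 were called higher and 0 lower, with a median of 0.88 beside 1.20 over all genes, of which 68.2% were called higher and 5.07% lower. A lower value on the TMM scale thus means that the subunits rose by less than most genes where library totals are used. With 1 library left out, 1 genotype rests on a single library. Whether the 8 calls depend on single libraries therefore cannot be judged from those fits. The median log2 fold change of the proteasome subunit genes tested ran from -0.249 to -0.12 over them, beside -0.202 in the main fit.

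Markers of other cell types differed by genotype in flight muscle. Summed counts of 8 fat body markers were 11830 and 9241 in WT muscle and 258796 and 309081 in Rbf-KD muscle, and all 7 of those tested were higher in Rbf-KD. The defining fat body genes were present in WT too, Lsp2 with 1531 and 1282 counts, and Yp1 had 1 to 5 counts in every muscle library. Summed counts of 10 hemocyte markers were 23417 and 24715 in WT and 87446 and 118852 in Rbf-KD, and 4 of 10 were called higher on the TMM scale. Of 9 flight muscle markers 6 were called lower and 0 higher on the TMM scale, while under library totals 5 were lower and 2 higher; their summed counts were 8780773 and 8909570 in WT against 5295553 and 6863366 in Rbf-KD. Of 7 tracheal markers 4 were called lower and 0 higher on the TMM scale (1 lower under library totals), and of 4 tendon markers 2 were lower and 1 higher (1 and 2 under library totals). Over all genes 19.4% were called higher and 20.3% lower on the TMM scale, and 68.2% and 5.07% under library totals. The part of these shifts in the proteasome differences was not tested.

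The 8 genes called lower on the TMM scale came from every class except the non-ATPase base: Prosalpha5, Prosalpha7, Prosbeta2, Prosbeta3, Prosbeta5, Rpt4, Rpt6 and Rpn12. Rpn12 had the largest decrease (log2 -0.72, SE 0.18, edgeR adjusted p = 0.0278), with 30.5 and 42.4 CPM in WT and 21.9 and 22.3 CPM in Rbf-KD on the scale of the muscle fit. Rpt6 followed (log2 -0.64, SE 0.13, edgeR adjusted p = 0.0152), with 37.2 and 43.8 CPM in WT and 26.1 and 26.1 CPM in Rbf-KD. For both genes each WT library was above each Rbf-KD library on this scale. Part of the Rpt6 transcript lies opposite CG1801, whose own log2 fold change was -0.73 here, and reads there are uncertain. The active sites parted: Prosbeta5 fell (log2 -0.54, SE 0.13, edgeR adjusted p = 0.0248), Prosbeta2 fell (log2 -0.50, SE 0.15, edgeR adjusted p = 0.0477) and Prosbeta1 was not called (log2 -0.06, SE 0.14, edgeR adjusted p = 0.739). Prosbeta3 fell by 0.55, Rpt4 by 0.54, Prosalpha7 by 0.53 and Prosalpha5 by 0.42 on the log2 scale. The replicate block ended the calls of Prosbeta2 (edgeR adjusted p = 0.0847) and Prosalpha5 (0.0656). Under library totals these 8 values lay between 0.39 (Rpn12) and 0.69 (Prosalpha5).

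The opposite end held Prosbeta4 and Rpn5. Prosbeta4 had 16.4 and 18.2 CPM in WT muscle and 22.5 and 23.3 CPM in Rbf-KD muscle on the scale of the muscle fit, and Rpn5 had 21.97 and 23.2 against 31.1 and 28.3 CPM. Neither gene overlapped between genotypes, and neither passed the test (log2 0.41, SE 0.13, edgeR adjusted p = 0.0563 and log2 0.39, SE 0.12, edgeR adjusted p = 0.0533). Rpn11 and Rpt5 were also separate and higher in Rbf-KD, so 4 core subunits were higher and 20 lower with no overlap, against 40.0% and 34.2% of all genes. The other ends of the classes, Rpn1 (log2 0.11) and Rpn13 (-0.27) of the base, were not called.

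**Figure D4:**
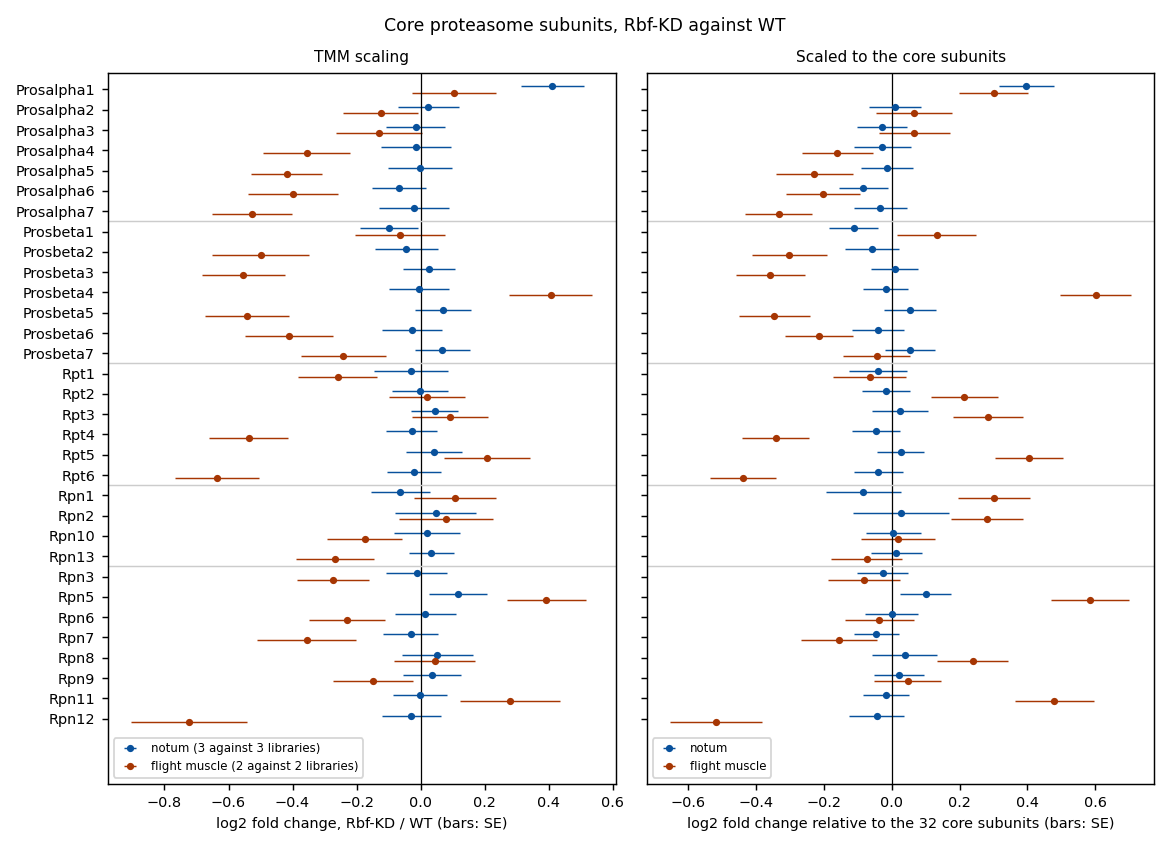
Log2 fold change of the 32 core subunits between Rbf-KD and WT, in notum and in flight muscle, on the TMM scale (left) and relative to the summed core subunits (right); bars are SE. Notum values lie near 0 except Prosalpha1 (0.41); muscle values below 0 on the left become positive under library totals.

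Relative to the complex, which sets the choice between TMM and library totals aside, 4 subunits were above it in Rbf-KD muscle and 2 below, against 23.9% and 15.6% of all genes. Both are smaller shares of the 32 subunits than those of all genes. The scaling to their own sum favours this, so it is not a result about the subunits. Above were Prosbeta4 (log2 0.60, SE 0.10, edgeR adjusted p = 0.0151), Rpn5 (log2 0.58, SE 0.11, edgeR adjusted p = 0.0205), Rpn11 (log2 0.48, SE 0.12, edgeR adjusted p = 0.0349) and Rpt5 (log2 0.41, SE 0.10, edgeR adjusted p = 0.0362). Below were Rpn12 (log2 -0.52, SE 0.14, edgeR adjusted p = 0.0422) and Rpt6 (log2 -0.44, SE 0.10, edgeR adjusted p = 0.0279). The place of a gene within the complex can be read library by library, as its log2 CPM less the mean log2 CPM of the 32 subunits. Rpn11 stood at -0.02, -0.02 and -0.04 in WT notum, -0.06, -0.05 and -0.04 in Rbf-KD notum, -1.13 and -1.01 in WT muscle and -0.56 and -0.63 in Rbf-KD muscle. Prosbeta4 stood at -0.68, -0.77 and -0.74 in WT notum, -0.75, -0.73 and -0.75 in Rbf-KD notum, -0.83 and -0.86 in WT muscle and -0.28 and -0.22 in Rbf-KD muscle. Rpn11 in Rbf-KD muscle lay between WT muscle and notum, and Prosbeta4 above both. With 1 library left out, 1 genotype rests on a single library, and the 6 values kept their sign. They were 0.58 to 0.62 (Prosbeta4), 0.51 to 0.65 (Rpn5), 0.42 to 0.54 (Rpn11), 0.38 to 0.44 (Rpt5), -0.65 to -0.37 (Rpn12) and -0.46 to -0.42 (Rpt6). Whether the calls hold cannot be judged from those fits. With a replicate block 2 were called above the complex (Prosbeta4 and Rpn5) and 0 below.

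The effect of genotype was then compared between the tissues, in the fit of all 10 libraries. On the TMM scale the effect on 6 core subunits was more negative in flight muscle than in notum and that on 1 more positive, against 13.1% and 17.2% of all genes. The 6 were Prosbeta3 (log2 -0.55, SE 0.12, edgeR adjusted p = 0.00945), Rpt6 (log2 -0.59, SE 0.14, edgeR adjusted p = 0.0108), Prosbeta5 (log2 -0.58, SE 0.14, edgeR adjusted p = 0.0135), Rpt4 (log2 -0.48), Rpn12 (-0.66) and Prosalpha7 (-0.48), and the 1 was Prosbeta4 (log2 0.44, SE 0.13, edgeR adjusted p = 0.0335). Under library totals the 6 values turned positive, between 0.41 and 0.60. There 31 of the 32 core effects were called more positive and 0 more negative, against 52.1% and 2.72% of all genes. Prosbeta3 and Rpt6 kept the call in each fit without 1 library, and Prosbeta4 kept it in 1 of 10. The replicate block ended the calls of Prosbeta4 (edgeR adjusted p = 0.0701) and Rpn12 (0.0526). At the ends of the other classes stood Prosalpha3 (-0.09), Rpt5 (0.19), Rpn1 (0.20), Rpn13 (-0.28) and Rpn11 (0.31), which were not called.

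Relative to the complex, 4 effects were more positive in flight muscle than in notum and 4 more negative, against 20.6% and 9.71% of all genes. The former were Prosbeta4 (log2 0.62, SE 0.10, edgeR adjusted p = 0.00211), Rpn11 (log2 0.50, SE 0.11, edgeR adjusted p = 0.00909), Rpn5 (log2 0.48) and Rpt5 (0.38). Prosbeta4 and Rpn11 kept the call in all 10 fits without 1 library and with the replicate block. The latter were Rpn12 (log2 -0.47), Prosbeta5 (-0.40), Rpt6 (-0.40) and Prosbeta3 (-0.37), of which 0 to 3 were called with 1 library left out and 0 with the replicate block, which ended the Rpt5 call as well (edgeR adjusted p = 0.0778). These genotype comparisons share the muscle libraries with those between tissues above.

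The duplicate genes were low in both tissues and were read mainly in notum, as counts. Prosalpha1R, inseparable from Prosalpha1, is the exception. Of the other 15, Rpn13R, Rpt3R, Rpt6R and Prosbeta2R2 had the most notum counts. Rpn13R (X), a copy of the ubiquitin receptor, had 158, 189 and 156 counts in WT notum, 192, 260 and 152 in Rbf-KD notum, 4 and 6 in WT flight muscle and 19 and 19 in Rbf-KD flight muscle. Rpt3R (3R) had 192, 168 and 196 counts in WT notum, 206, 184 and 155 in Rbf-KD notum, 7 and 5 in WT flight muscle and 5 and 4 in Rbf-KD flight muscle. Rpt6R (3R) had 167, 111 and 125 counts in WT notum, 194, 103 and 72 in Rbf-KD notum, 3 and 3 in WT flight muscle and 2 and 13 in Rbf-KD flight muscle. Each notum library held more of each gene than any flight muscle library. The test called 6 of the 9 duplicates tested lower in flight muscle in each genotype: Prosalpha1R, Prosbeta2R2, Rpn13R, Rpt3R and Rpt6R in both, Prosalpha4T1 in WT only and Prosalpha6T in Rbf-KD only. Over all genes 43.4% and 39.2% were called lower. In the muscle libraries alone 2 of the 16 duplicates passed the filter, against 8 in the notum libraries alone. Most of the 9 were thus tested through their notum counts, which favours a lower value in muscle. Their number is therefore not a result about the duplicates. The p-values below of Rpt3R, Rpt6R and Prosbeta2R2, which did not pass the filter in the muscle libraries alone, carry the same limit. With the replicate block Prosalpha1R was not called in WT (edgeR adjusted p = 0.0510). Without the block, Rpn13R had log2 -2.58, SE 0.44, edgeR adjusted p = 0.000528 in WT and log2 -2.10, SE 0.38, edgeR adjusted p = 0.000963 in Rbf-KD. Rpt3R had log2 -2.45, SE 0.35, edgeR adjusted p = 0.000187 in WT and log2 -4.02, SE 0.38, edgeR adjusted p = 1.27e-05 in Rbf-KD, and Rpt6R had log2 -2.94, SE 0.73, edgeR adjusted p = 0.00520 in WT and log2 -2.81, SE 0.66, edgeR adjusted p = 0.00416 in Rbf-KD. Rpt3R was also the one duplicate whose genotype effect differed between tissues (log2 -1.57, SE 0.50, edgeR adjusted p = 0.0418), on 12 and 9 counts in the muscle groups, and with the replicate block it was not called (edgeR adjusted p = 0.0939).

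Prosbeta2R2 (3R), a copy of the trypsin-like site, had 105, 94 and 139 counts in WT notum, 154, 100 and 94 in Rbf-KD notum, 0 and 2 in WT flight muscle and 3 and 6 in Rbf-KD flight muscle. On the TMM scale the ratio of notum to flight muscle was 19.6 in WT (95% interval 5.38 to 162) and 10.7 in Rbf-KD (5.55 to 23.5), intervals of counting error only. Both genotypes were called (log2 -4.27, SE 0.82, edgeR adjusted p = 0.00115 and log2 -3.41, SE 0.66, edgeR adjusted p = 0.00139), in a test the gene entered through its notum counts. Prosalpha6T (2L), a copy known from the fly testis, had 43, 10 and 15 counts in WT notum, 61, 16 and 19 in Rbf-KD notum, 0 and 1 in WT flight muscle and 0 and 0 in Rbf-KD flight muscle. With 0 counts in Rbf-KD muscle it was at least 8.81-fold higher in Rbf-KD notum, set against a floor of 3 counts over the group. The ratio in WT was 7.88 (95% interval 1.37 to 316). Replicate 1 held most of the notum counts in both genotypes: without it the bound in Rbf-KD was 4.82-fold and the ratio in WT 4.89, a check added after the counts were seen.

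Prosalpha4T1, Prosalpha4T2 and Prosbeta5R2 were likewise uneven between notum replicates. Prosalpha4T1 (3R) had 92, 14 and 53 counts in WT notum, 97, 8 and 27 in Rbf-KD notum, 0 and 0 in WT flight muscle and 3 and 6 in Rbf-KD flight muscle, which was at least 6.14-fold higher in WT notum than in WT muscle, against the same floor. Prosalpha4T2 (2R) had 43, 6 and 29 counts in WT notum, 87, 4 and 13 in Rbf-KD notum, 0 and 1 in WT flight muscle and 1 and 2 in Rbf-KD flight muscle. Prosbeta5R2 (2L), a copy of the chymotrypsin-like site, had 66, 2 and 2 counts in WT notum, 79, 7 and 6 in Rbf-KD notum, 0 and 0 in WT flight muscle and 1 and 3 in Rbf-KD flight muscle. In these 3 genes, as in Prosalpha6T, the replicate 1 notum libraries of both genotypes were the highest. Without them Prosbeta5R2 would have 2 to 7 counts in notum. The testis gene dj also had its highest raw counts in these libraries, with 94, 38 and 75 counts in WT notum and 143, 50 and 41 in Rbf-KD notum. These counts are not scaled for depth: WT notum replicate 1 held 55401980 gene counts and replicate 3 held 44296492, while Rbf-KD replicate 1 held 44950160. Another testis gene, sa, was not highest there (280, 237 and 291 counts in WT notum, 333, 348 and 329 in Rbf-KD notum), and bam had 667 to 806 counts in every notum library. Over 8 male germline markers the summed counts were 1644 to 2315 in notum and 75 to 251 in flight muscle, aly and nht had 0 to 13 counts in any library, and the part of such cells in the duplicate counts was not tested.

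The other 7 duplicates stayed at the edge of detection. Prosalpha3T (3R) had 0, 1 and 0 counts in WT notum, 10, 1 and 0 in Rbf-KD notum, 0 and 2 in WT flight muscle and 0 and 1 in Rbf-KD flight muscle. Prosbeta5R1 (2R) had 0, 2 and 0 counts in WT notum, 19, 3 and 1 in Rbf-KD notum, 0 and 2 in WT flight muscle and 0 and 1 in Rbf-KD flight muscle. Prosbeta2R1 (X) had 3, 1 and 1 counts in WT notum, 10, 1 and 3 in Rbf-KD notum, 0 and 1 in WT flight muscle and 0 and 0 in Rbf-KD flight muscle. In these 3 the first Rbf-KD notum library held the highest count. Prosbeta4R1 (2L) had 3, 0 and 0 counts in WT notum, 3, 0 and 1 in Rbf-KD notum, 0 and 0 in WT flight muscle and 1 and 2 in Rbf-KD flight muscle. Prosbeta4R2 (2L) had 1, 0 and 0 counts in WT notum, 4, 2 and 0 in Rbf-KD notum, 0 and 0 in WT flight muscle and 0 and 5 in Rbf-KD flight muscle. Rpn12R (3L) had 2, 0 and 0 counts in WT notum, 7, 0 and 0 in Rbf-KD notum, 1 and 0 in WT flight muscle and 0 and 6 in Rbf-KD flight muscle. None of these 3 passed 7 counts in any library. Rpt4R (3L) had 3, 0 and 2 counts in WT notum, 8, 0 and 1 in Rbf-KD notum, 0 and 0 in WT flight muscle and 12 and 9 in Rbf-KD flight muscle, with more counts in Rbf-KD muscle than in any other group. Between genotypes no duplicate was called in either tissue by edgeR (8 tested in notum, 2 in flight muscle), and 1, Prosalpha1R in notum, had an unadjusted p under 0.05.

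**Figure D5:**
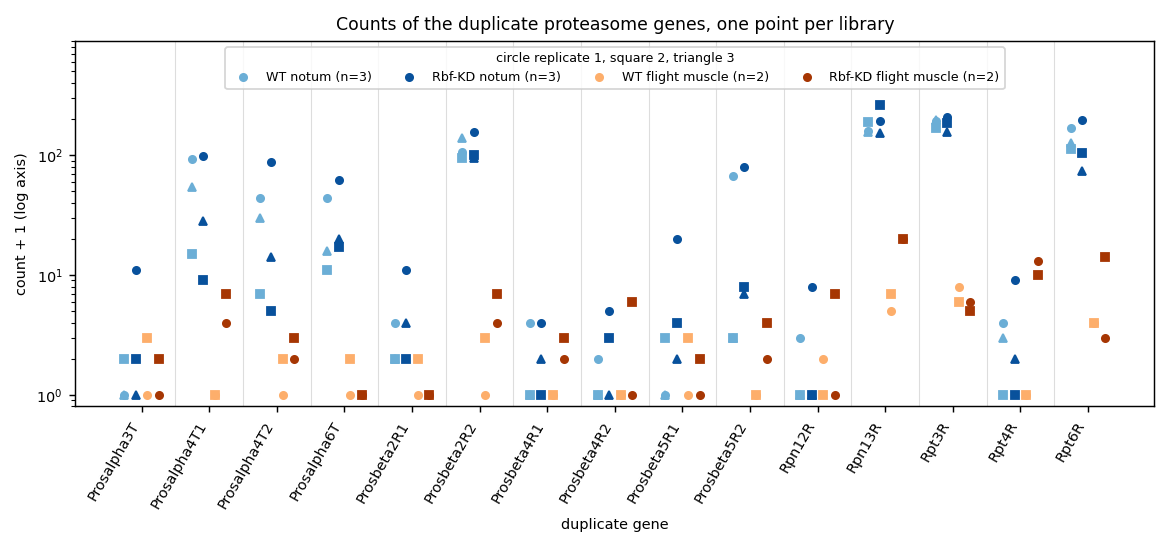
Counts plus 1 of the 15 duplicate proteasome genes other than Prosalpha1R, one point per library on a log axis, with the replicate number as the symbol. Rpn13R, Rpt3R, Rpt6R and Prosbeta2R2 lie at 72 counts or more in every notum library and at 19 or fewer in flight muscle; the replicate 1 notum libraries (circles) are highest for Prosalpha4T1, Prosalpha4T2, Prosalpha6T and Prosbeta5R2.

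The genes around the proteasome were examined from lists of assembly factors and accessory proteins, regulators of its transcription, ubiquitin and p97 genes, other quality control genes and the CCT chaperonin, another large complex. In notum edgeR called 0 of them in either direction, and 5 had an unadjusted p under 0.05 (1 ubiquitin gene and 4 of other quality control). Of 12 assembly and accessory genes 1 was higher and 8 lower in WT flight muscle than in notum, and 2 higher and 6 lower in Rbf-KD, against 33.3% of all genes higher and 43.4% lower in WT and 34.9% and 39.2% in Rbf-KD. Under library totals all 12 were lower in both, as were 76.3% of all genes in WT and 68.5% in Rbf-KD. Pomp, which assembles the barrel, rose in WT muscle (log2 0.30, SE 0.09, edgeR adjusted p = 0.0160; -2.46 under library totals; with the replicate block edgeR adjusted p = 0.0560) and was not called in Rbf-KD (-0.10). Uch-L5, a deubiquitinase bound to the cap, fell the most (log2 -3.40, SE 0.13, edgeR adjusted p = 2.14e-08 in WT and log2 -2.27, SE 0.11, edgeR adjusted p = 2.15e-07 in Rbf-KD). It had 7851, 4682 and 5708 counts in WT notum, 6430, 6572 and 5636 in Rbf-KD notum, 97 and 101 in WT flight muscle and 511 and 545 in Rbf-KD flight muscle. Usp14, another cap deubiquitinase, and REG, an activator that caps the barrel in place of the base and lid, were lower in WT muscle (log2 -0.85 and -0.83; -0.16, not called, and -0.45, called, in Rbf-KD). PI31, a proteasome-binding regulator, was lower in WT muscle (log2 -0.50, SE 0.10, edgeR adjusted p = 0.00145) and not called in Rbf-KD (0.21), and the shuttle factor Rad23 was called in neither (log2 -0.27 and -0.02).

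Between genotypes in flight muscle, 3 of these 12 were higher in Rbf-KD and 0 lower on the TMM scale, against 19.4% and 20.3% of all genes: Uch-L5 (log2 1.13, SE 0.21, edgeR adjusted p = 0.0109), PI31 (log2 0.73, SE 0.15, edgeR adjusted p = 0.0150) and Usp14 (log2 0.65, SE 0.13, edgeR adjusted p = 0.0152). Under library totals all 12 were higher, as were 68.2% of all genes. REG (log2 0.30), Rad23 (0.18) and Pomp (log2 -0.36, SE 0.11, edgeR adjusted p = 0.0513) were not called. In notum the 12 genes lay between -0.06 and 0.06 on the log2 scale. The genotype effect differed between tissues for 5 of the 12, more positive in flight muscle for 4 and more negative for 1, against 17.2% and 13.1% of all genes (all 12 more positive under library totals, as were 52.1% of all genes). They were CG12096 (log2 0.44; with the replicate block edgeR adjusted p = 0.0637), Uch-L5 (edgeR adjusted p = 0.000689), Usp14 (log2 0.69), PI31 (0.71) and Pomp (log2 -0.40, SE 0.13, edgeR adjusted p = 0.0497; 0.68 under library totals, and edgeR adjusted p = 0.104 with the replicate block), but not REG (0.38) or Rad23 (0.24). The transcription factor cnc, the fly relative of the Nrf factors that drive proteasome genes, was called in none of the 5 comparisons on the TMM scale. Under library totals cnc was called lower in muscle than in notum in both genotypes, and higher in Rbf-KD than in WT muscle. The lack of a call there thus holds on the TMM scale only. It had 15506, 11901 and 12744 counts in WT notum, 12110, 15999 and 13968 in Rbf-KD notum, 2670 and 2070 in WT flight muscle and 5965 and 6818 in Rbf-KD flight muscle, and its log2 fold changes were 0.04 and 0.15 between genotypes in notum and flight muscle and 0.01 and 0.15 between tissues in WT and Rbf-KD (interaction 0.14). Keap1, the inhibitor of cnc, was higher in WT muscle than in WT notum (log2 1.58, SE 0.10, edgeR adjusted p = 5.24e-07; -1.17 under library totals) and lower in Rbf-KD than in WT muscle (log2 -1.67, SE 0.14, edgeR adjusted p = 0.00127). Its genotype effect differed between tissues (log2 -1.71).

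Of the 7 regulators of transcription 3 were higher and 2 lower in WT muscle than in notum, 2 higher and 1 lower in Rbf-KD, and 0 higher and 2 lower in Rbf-KD than in WT muscle. Among 13 other quality control genes these counts were 5 and 5, 7 and 4, and 4 and 3. The shares of all genes higher and lower in the same comparisons were 33.3% and 43.4%, 34.9% and 39.2%, and 19.4% and 20.3%. All of these are TMM-scale counts: under library totals they were 0 and 6, 0 and 6, and 5 and 1 for the regulators, and 0 and 13, 1 and 10, and 7 and 1 for the quality control genes. The shares of all genes under library totals were 10.9% and 76.3%, 16.1% and 68.5%, and 68.2% and 5.07%. The called genes of smallest adjusted p are named next, on the TMM scale. Among the regulators foxo, a stress-response transcription factor, was higher in muscle than in notum (log2 2.63, SE 0.14, edgeR adjusted p = 2.44e-07 in WT, log2 1.78 in Rbf-KD), which under library totals became -0.12 and 0.11, neither called, and the shuttle factor rngo lower (log2 -1.07 and -1.08). Of the assembly list CG12096 was higher in Rbf-KD muscle than in Rbf-KD notum (log2 0.51; -1.17 under library totals). Among the quality control genes Atg8a, an autophagosome protein gene, was higher in WT muscle than in WT notum (log2 2.11, SE 0.10, edgeR adjusted p = 7.34e-08; -0.64 under library totals), and Hsp27, a small heat shock protein gene, was lower in both genotypes (log2 -5.28 and -5.09). CG11267 was higher in Rbf-KD than in WT muscle (log2 1.64) and in Rbf-KD muscle than in Rbf-KD notum (log2 1.60; -0.077 under library totals), and its genotype effect differed between tissues (log2 1.99). Atg1, the kinase that starts autophagy, was lower in Rbf-KD than in WT muscle (log2 -1.89, SE 0.12, edgeR adjusted p = 0.000829; difference of effects -1.67).

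Ubiquitin genes and the CCT complex took opposite courses on the TMM scale. Of 25 ubiquitin and p97 genes 17 were higher and 4 lower in WT flight muscle than in notum on the TMM scale, and 12 were lower and 0 higher in Rbf-KD than in WT muscle. Over all genes the shares were 33.3% higher and 43.4% lower in the first comparison and 20.3% lower in the second. Under library totals 2 were higher and 21 lower in the first comparison, and 15 higher and 4 lower in the second. The shares of all genes were then 10.9% higher and 76.3% lower, and 68.2% higher and 5.07% lower. Ubi-p5E, a polyubiquitin gene, was at 34370, 18344 and 23990 counts in WT notum, 26511, 26944 and 23873 in Rbf-KD notum, 99426 and 119435 in WT flight muscle and 45847 and 62955 in Rbf-KD flight muscle. It was higher in flight muscle under both scalings, with log2 4.65, SE 0.15, edgeR adjusted p = 9.92e-09 in WT (1.89 under library totals), and lower in Rbf-KD than in WT muscle under both (log2 -2.32, SE 0.18, edgeR adjusted p = 0.00100; -1.21). Ubi-p63E, the other polyubiquitin gene, was higher in WT muscle on the TMM scale (log2 3.14, SE 0.11, edgeR adjusted p = 1.62e-08) and lower in Rbf-KD than in WT muscle (log2 -1.67, SE 0.12, edgeR adjusted p = 0.000952). In Rbf-KD 15 of the 25 were higher and 6 lower in muscle than in notum on the TMM scale, against 34.9% and 39.2% of all genes. Under library totals 1 was higher and 20 lower, which turns the direction, against 16.1% and 68.5% of all genes. Ubi-p5E was again among those higher on the TMM scale (log2 2.35), and its genotype effect differed between tissues (log2 -2.30). The p97 cofactor gene p47 was lower in muscle in both genotypes (log2 -1.04 in WT and -1.14 in Rbf-KD). All 8 CCT genes were lower in WT muscle than in notum (median log2 -2.45), and all 8 were higher in Rbf-KD than in WT muscle (median 1.52), in both cases also under library totals (medians -5.20 and 2.62). Over all genes 43.4% and 19.4% were called in these directions on the TMM scale, and 76.3% and 68.2% under library totals. CCT1 was 12.1-fold lower in WT muscle than in WT notum (edgeR adjusted p = 1.30e-08) and 3.12-fold lower in Rbf-KD muscle than in Rbf-KD notum, where 6 of 8 were called lower against 39.2% of all genes, and its genotype effect differed between tissues (log2 1.96). CCT5 was higher in Rbf-KD than in WT muscle (log2 1.98, SE 0.13, edgeR adjusted p = 0.000847). The core proteasome medians in the same comparisons were -0.33 and -0.24 on the TMM scale.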

How the data were processed

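Total RNA depleted of ribosomal RNA was sequenced in 10 libraries. The authors deposited whole-number counts per transcript. The submitters' processing notes name genome build BDGP5 and, with no roles, TopHat2 2.1.1 with Bowtie2 2.3.2, featureCounts of Subread, DESeq2 1.14.1, FastQC and bcl2fastq 2.17.1.14; whether counting used strand, and how reads over several genes were treated, is not given in the sources used here. Transcripts were matched to genes by identifier through a BDGP6 annotation (27011 of 29173). The 2162 unmatched transcripts, which held 9.86% to 20.34% of a library's counts, were left out. Each gene was given the count and length of 1 transcript, the one with the largest sum over libraries.

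Main tests were edgeR's robust quasi-likelihood test (edgeR 4.0.16, limma 3.58.1, R 4.3.3) with TMM scaling, a minimum count of 10 (minimum total 15) and Benjamini-Hochberg adjustment over all genes of a fit. Genotypes were compared within each tissue's own libraries, and tissues and the difference of effects in 1 fit of all 10 libraries. Alternatives were library totals, DESeq2 1.42.0, limma-voom, no filter, sums over transcripts, a replicate block and each library left out. Scaling to the summed core subunits, a crossed pairing of the muscle replicates and, in the fit of all libraries, leaving out both replicate 1 notum libraries were chosen after seeing the data. The fits were tested on simulated data.

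Same-numbered notum libraries deviated together (r = 0.77, 0.63 and 0.44), so the numbers were taken to pair them, by the data and not by a label. The main notum test did not use this pairing, which entered only through the replicate block. Libraries of different number also correlated (WT 2 with Rbf-KD 3, r = 0.53; WT 3 with Rbf-KD 2, r = 0.40), and replicate 1 alone stood apart. The muscle libraries gave r = -0.12. With 2 libraries per group the crossed pairing must give the opposite value, so this cannot decide whether the numbers pair them. Pairing was not checked between tissues, so the block in the fit of all libraries joins notum and muscle libraries by number alone. Named genes are, per comparison, the highest and lowest member of each class by log2 fold change, members called against the majority, the active sites, every duplicate, the called list member of smallest adjusted p in each direction, and Rbf, Pomp, cnc, Rad23, REG, PI31, Uch-L5 and Usp14; further genes were named after their values were seen. Members and lists were chosen with earlier results of these data known. List names without a match in the table were not used, and rngo stands in 2 lists. Ratios carry 95% exact intervals, and a group without counts is set at 3 counts; both cover counting error only.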

Additional observations from a re-analysis of the deposited data

Results flagged for a closer look

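For 8 members the effect of genotype differed between flight muscle and notum in the test of the difference itself (edgeR adjusted p under 0.05, fit of all 10 libraries, TMM scale). Values are the log2 effect in flight muscle less that in notum. The 7 more negative in flight muscle were Prosalpha7 (-0.48), Prosbeta3 (-0.55), Prosbeta5 (-0.58), Rpn12 (-0.66), Rpt4 (-0.48), Rpt6 (-0.59) and Rpt3R (-1.57). Prosbeta4 was the 1 more positive (0.44). Rpt3R rests on 7 and 5 counts in WT muscle and 5 and 4 in Rbf-KD muscle. Under library totals the 6 core subunits of the first group turned positive, and Prosbeta4 stayed positive (1.51). Prosbeta3 and Rpt6 alone of the core subunits kept the call in each fit with 1 library left out, and the replicate block ended the calls of Prosbeta4 (edgeR adjusted p = 0.0701), Rpn12 (0.0526) and Rpt3R (0.0939). In Rbf-KD muscle all 7 fat body markers tested and 4 of 10 hemocyte markers were called higher than in WT muscle on the TMM scale, and 6 of 9 flight muscle and 4 of 7 tracheal markers lower. Over all genes 19.4% were called higher and 20.3% lower. The part of these cell types in the differences above was not tested.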

How the results depend on the processing

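Counts below are of proteasome subunit genes called, core subunits and duplicates together, and medians are of their log2 fold changes; the cause of a change was not tested. Under library totals in place of TMM, flight muscle genotypes gave 33 higher and 0 lower (median 0.907) in place of 0 and 8 (-0.202), and the tissue comparison gave 0 higher and 41 lower (-3.214) in place of 5 and 25 (-0.455) in WT and 0 higher (-2.324) in place of 1 (-0.647) in Rbf-KD. The difference of effects then gave 33 higher and 0 lower (0.859) in place of 1 and 7 (-0.207). Values that turned sign with library totals were, between muscle genotypes, Prosalpha5 0.69, Prosalpha7 0.58, Prosbeta2 0.61, Prosbeta3 0.56, Prosbeta5 0.57, Rpn12 0.39, Rpt4 0.57, Rpt6 0.48 and foxo 0.18. Between tissues in WT they were Pomp -2.46, Prosalpha7 -2.46, Prosbeta5 -2.40, Rpn10 -2.32, Rpn12 -2.42, Rpn6 -2.49, Atg1 -1.07, Atg8a -0.64, Keap1 -1.17 and foxo -0.12, and in Rbf-KD Rpn10 -1.41, Atg8a -0.90, CG11267 -0.077, CG12096 -1.17 and Ubi-p63E -0.028. In the difference of effects they were Pomp 0.68, Prosalpha7 0.60, Prosbeta3 0.53, Prosbeta5 0.49, Rpn12 0.41, Rpt4 0.59, Rpt6 0.49 and foxo 0.23. Scaled to the core subunits, muscle genotypes gave 4 higher and 2 lower (-0.009), tissues 10 and 14 (-0.136) in WT and 8 and 14 (-0.146) in Rbf-KD, and the difference of effects 4 and 4 (-0.036). Sign changes there were Prosalpha5 0.059, Prosbeta3 0.071 and Rpn1 0.026 in WT, and Prosbeta6 0.13, REG 0.044, Rpn12 0.17, Rpn13 0.16, Rpn7 0.089, Rpn8 0.018, Rpt3 0.15 and Rpt5 0.075 in Rbf-KD. DESeq2 gave 2 higher in notum in place of 0, a WT tissue median of -0.303, and 0 higher and 19 lower (-0.366) in the difference of effects. Without the filter the medians were 0.049 in notum in place of -0.002, -0.111 in muscle with 2 higher, -0.536 in WT tissues with 2 higher, and -0.705 in Rbf-KD tissues with 0 higher. The muscle contrast from the fit of all libraries gave 3 higher (-0.087). Without both replicate 1 notum libraries the medians were 0.09 in notum, -0.318 between WT tissues and -0.339 in the difference of effects, with 0 higher. With the replicate block the WT tissue comparison gave 2 higher, the Rbf-KD comparison 0 higher and the difference of effects 0 higher; relative to the complex the muscle genotypes gave 2 above and 0 below, and the difference of effects 0 below. Between muscle genotypes, whose numbers were not shown to pair the libraries, the block gave 6 lower, without Prosalpha5 (edgeR adjusted p = 0.0656) and Prosbeta2 (0.0847). The block ended other single calls too, Prosalpha7, Rpn12 and Rpn6 of the WT tissue comparison among them. A crossed pairing of the muscle libraries called 0 members higher and 6 lower, and 2075 of all genes higher and 2102 lower. With 1 library left out at a time, the notum median ran from -0.038 to 0.103. The muscle genotypes gave 0 to 8 lower (-0.249 to -0.12), WT tissues 1 to 5 higher and 19 to 25 lower (-0.549 to -0.327), Rbf-KD tissues 0 to 1 higher and 28 to 31 lower (-0.704 to -0.645), and the difference of effects 0 to 1 higher and 3 to 11 lower (-0.372 to -0.154). Relative to the complex these fits gave 0 to 1 above and 0 to 1 below between muscle genotypes, and 2 to 5 above and 0 to 3 below in the difference of effects. A muscle group left with 1 library is assumed to vary like the others. Between muscle genotypes, a call lost in such a fit therefore does not show that it rested on 1 library. Over all values and alternatives, 4489 kept their side of the threshold or stayed within the spread, 254 lost a call, 126 gained one, 43 called values turned sign, with or without a call under the alternative, and 57 moved otherwise. With 2 muscle libraries per genotype, small differences are at the limit of what these data can show.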
